A study of Mus musculus with 6 samples.

Results

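The genes described here are the 5 NF-κB transcription factor subunits (Nfkb1, Nfkb2, Rel, Rela and Relb) and 5 inhibitors that NF-κB itself induces (Nfkbia, Nfkbie, Nfkbiz, Bcl3 and Tnfaip3). They were picked by symbol from a table of 50600 genes, each symbol matched 1 row, and all 10 were expressed highly enough to be tested. The libraries came from resident macrophages of the pancreatic islets (3 libraries) and of the epididymal white fat (3 libraries), both taken from untreated, chow-fed C57BL/6J males aged 12 weeks. Cells were sorted as DAPI-negative and positive for CD45, F4/80 and CD64. Libraries are numbered 2, 4 and 6 in each tissue. The design text of the study calls the samples autologous, but the main test treats the libraries as unpaired. No genetic change is named for these animals, and the sources used here do not say whether a library holds RNA of 1 animal or of a pool. The comparison asks how the RNA of these regulators differs between the macrophages of the 2 tissues.

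NF-κB is a family of dimeric transcription factors that macrophages use to switch on cytokine, chemokine and survival genes after signals from Toll-like, interleukin 1 and TNF receptors. In unstimulated cells the dimers are held in the cytoplasm by inhibitor of κB (IκB) proteins, and the IκB kinases mark these inhibitors for destruction. Freed dimers enter the nucleus and among the genes that they switch on are those of their own inhibitors, which closes a feedback loop. A second route, the non-canonical pathway, works through processing of the Nfkb2 product p100 and dimers that contain RelB.

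Total counts ranged from 4089980 to 9235591 per library. All 6 defining macrophage markers (Ptprc, Adgre1, Fcgr1, Csf1r, Cd68 and Itgam) were detected, with a summed level of 3321 to 5157 CPM (counts scaled to a TMM-adjusted library size of 1e+06) in islet and 3253 to 4309 CPM in fat libraries. One of the 6, Itgam, was lower in islet macrophages (37.2 ± 8.92 against 161 ± 44.4 CPM, SD, n = 3). The symbol Itgam matched 2 rows, of which the first is given, and 68.7% of its exonic length is shared with a gene on the same strand. Markers of other cells differed between the tissues. All 6 beta cell markers were higher in islet libraries (summed 2680 to 7869 CPM against 1.06 to 5.84 CPM). Of 5 tested adipocyte markers, 5 were lower in islet libraries (summed 98.0 to 202 CPM against 320 to 517 CPM). The islet sum was Lpl alone, with Adipoq, Plin1, Lep, Cidec and Retn at 0 in every islet library. Most of the fat sum was Lpl too, with 288, 326 and 503 CPM of 320, 368 and 517 CPM in fat libraries 2, 4 and 6. Also lower were 5 of 5 tested fibroblast markers (0.605 to 2.58 CPM against 86.5 to 376 CPM). T and NK cell markers summed to 6.71 CPM at most and neutrophil markers to 2.65 CPM at most, with Ly6g at 0 in every library. Acinar markers summed to 5.44, 81.7 and 10.6 CPM in islet libraries 2, 4 and 6 and 2.65 CPM at most in fat libraries, with Amy2a5 at 0 throughout. Markers of other endocrine cells summed to 383 to 834 CPM in islet and 11.2 to 13.9 CPM in fat libraries and those of B cells to 38 to 222 CPM and 167 to 242 CPM. Dendritic cell markers went both ways, with 1 of 5 tested higher in islet (Siglech, 188 against 31.0 CPM) and 2 lower (Cd209a, 1.15 against 59.4 CPM, and Zbtb46, 1.44 against 22.5 CPM), and summed to 133 to 281 CPM in islet and 117 to 119 CPM in fat libraries. Endothelial markers summed to 7.45 to 23.3 CPM in islet and 26.7 to 155 CPM in fat libraries. Heat shock genes took 10.7%, 10.9% and 1.21% of counts in islet libraries 2, 4 and 6 and 0.393% to 0.418% in fat libraries. The part of other cells and of heat shock in the results on NF-κB genes was not tested. In bulk RNA, a smaller share of expressing cells and less RNA per cell cannot be told apart.

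Of the 10 NF-κB genes, 2 fell in islet relative to fat macrophages, Nfkbia and Nfkbiz. Both are listed here as inhibitors, although the product of Nfkbiz is also needed for some target genes. None of the other NF-κB genes passed the threshold, an adjusted p under 0.05 over all 12152 genes tested (edgeR quasi-likelihood test, Benjamini-Hochberg). With 0 genes called higher, 1 (Nfkb1) had an unadjusted p under 0.05, DESeq2 called 1 (Nfkb1) and limma voom called 0. Over all genes tested, 8.97% were called higher and 10.5% lower in islet macrophages. The median log2 difference, islet minus fat, was 0.15 over the 10 genes, 0.44 over the 5 subunits and -0.38 over the 5 inhibitors, beside 0.0061 over all genes tested. Ranges of CPM did not overlap between the tissues for Rela, higher in islet, and for Nfkbia, Nfkbiz and Tnfaip3, lower in islet. Among all genes tested 18.2% lay wholly above and 22.3% wholly below in islet libraries.

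**Figure D1:**
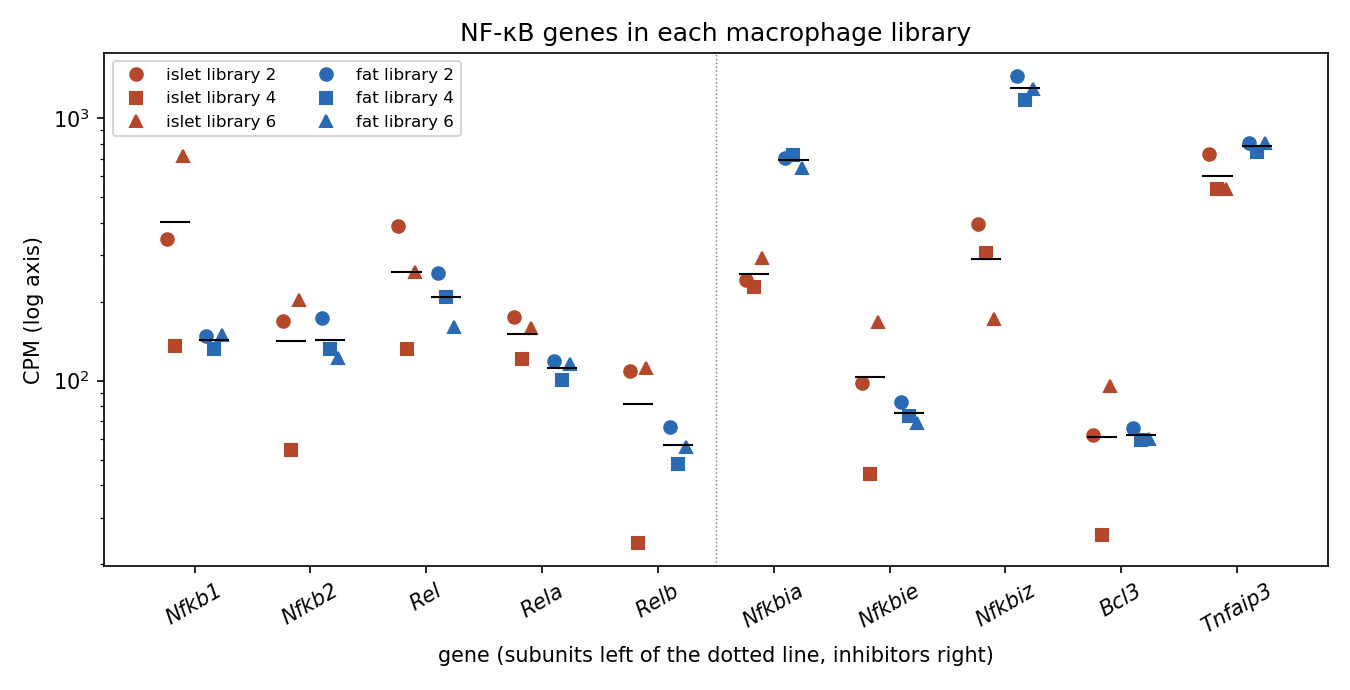
CPM (log axis) of the 10 NF-κB genes in each library, with islet libraries in red, fat libraries in blue, a symbol for each library number and a bar at each tissue mean. Nfkbia and Nfkbiz lie lower in every islet library than in any fat library, while Nfkb1 spans 135 to 719 CPM in islet and 133 to 149 CPM in fat libraries.

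Nfkbia encodes IκBα, the main cytoplasmic inhibitor of dimers that contain RelA and the fastest of the feedback inhibitors. It lies on GRCm38 chr12:55489410-55492647, on the minus strand. In islet libraries 2, 4 and 6 its level was 242, 227 and 293 CPM, and in fat libraries of the same numbers 702, 723 and 647 CPM. Every islet library lay below every fat library, and the islet libraries were close to each other. The tissue means of Nfkbia were 254 ± 34.6 and 691 ± 39.0 CPM (± SD over 3 libraries each), 2.72-fold lower in islet macrophages. The log2 difference was -1.44 ± 0.25 (SE), with a 95% interval of -2.01 to -0.88 and an edgeR adjusted p = 0.00454. It remained past the threshold in all 15 alternative fits, with log2 differences of -1.57 to -1.32.

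Nfkbiz encodes IκBζ, a nuclear member of the IκB family that binds p50 dimers and is needed for a second wave of target genes such as Il6. It lies on chr16:55811375-55838899, on the minus strand. Islet libraries 2, 4 and 6 held 395, 306 and 171 CPM, and fat libraries 1445, 1169 and 1288 CPM. The lowest fat library was above the highest islet library, and islet library 6 was the lowest of all. Mean levels were 291 ± 113 and 1300 ± 138 CPM (± SD over 3 libraries each), 4.47-fold lower in islet macrophages. The log2 difference was -2.16 ± 0.36 (SE), with a 95% interval of -2.97 to -1.35 and an edgeR adjusted p = 0.00383. This call too remained in all 15 alternatives (log2 differences of -3.00 to -1.90). Islet libraries 2 and 4 held the most heat shock RNA, and with both left out the log2 difference was -3.00 for Nfkbiz and -1.32 for Nfkbia, a fit in which the spread comes from the fat libraries and is taken to hold for the single islet library.

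Immediate early genes, which cell handling and stimulation both induce within minutes, moved the same way as these inhibitors. Of 14 such genes, 9 fell in islet macrophages and 5 did not pass in edgeR, while 0 rose in edgeR (0 also at an unadjusted p under 0.05), DESeq2 or limma voom. Among all genes tested, edgeR called 10.5% lower and 8.97% higher. Islet libraries 2, 4 and 6 held 285, 341 and 151 CPM of Fos, and the fat libraries 3083, 3241 and 3587 CPM (edgeR adjusted p = 4.66e-04). Jun was 2929, 4864 and 143 CPM in islet and 2782 to 3338 CPM in fat libraries, and Atf3 was 1506, 1269 and 222 CPM in islet and 1025 to 1294 CPM in fat libraries, so both were low in islet library 6 alone, and their log2 differences of -0.25 and -0.23 became 0.30 and 0.24 without it. All 11 heat shock genes of the same list rose in islet macrophages, with Hspa1a at 21923, 37869 and 823 CPM in islet and 75.6 to 129 CPM in fat libraries. Hspa1a has a near-identical copy, Hspa1b, and how reads that match both were counted is not stated. The part of this response in the levels of Nfkbia and Nfkbiz was not tested.

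Tnfaip3 encodes A20, an enzyme that edits ubiquitin chains and stops signalling upstream of the IκB kinases. It stood at 729, 537 and 538 CPM in islet and 804, 744 and 805 CPM in fat libraries 2, 4 and 6. The islet values all lay below the fat values but by little. The log2 difference of -0.38 ± 0.26 (SE) did not pass (95% interval -0.98 to 0.21, edgeR adjusted p = 0.361).

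Nfkbie encodes IκBε, a later-acting cytoplasmic inhibitor. Its levels of 98.2, 44.1 and 167 CPM in islet libraries 2, 4 and 6 lay on both sides of the 68.9 to 83.2 CPM of the fat libraries. Its log2 difference was 0.46 ± 0.42 (SE, 95% interval -0.49 to 1.40, edgeR adjusted p = 0.502). Without islet libraries 2 and 4 it was 1.07, a fit that holds only islet library 6, the highest for this gene, and so no islet spread. Bcl3, an atypical nuclear IκB protein that works with p50 and p52 dimers, stood at 61.9, 25.8 and 95.7 CPM in islet and 59.4 to 66.2 CPM in fat libraries. The tissue means of Bcl3 were almost equal, but the interval of its log2 difference (-0.94 to 0.92) allows a change of close to 2-fold either way (edgeR adjusted p = 0.988). A stretch of 6.51% of the exonic length of Bcl3 overlaps a gene on the opposite strand.

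**Figure D2:**
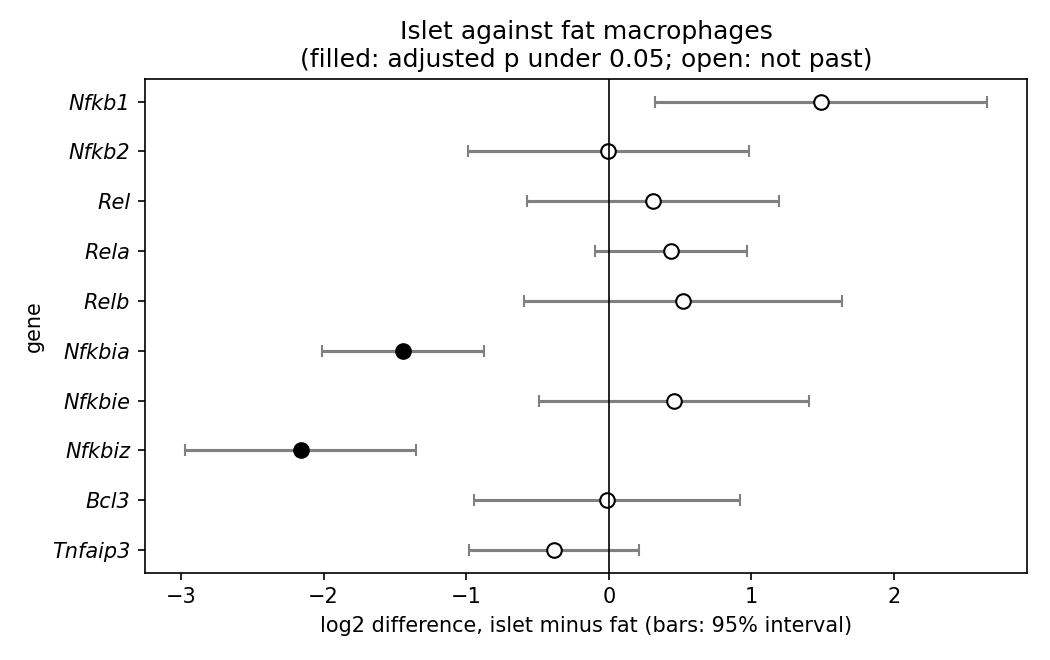
Log2 difference, islet minus fat, of each NF-κB gene with its 95% interval from the edgeR fit of 3 against 3 libraries, filled where the adjusted p is under 0.05. Nfkbia (-1.44) and Nfkbiz (-2.16) are filled, and the interval of Nfkb1 (0.32 to 2.65) lies above 0 although its adjusted p is 0.0763.

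Among the subunit genes, Nfkb1 had the largest difference. It encodes p105, the precursor of p50, and p105 itself retains dimers like an IκB protein. Nfkb1 (chr3:135584655-135691547, minus strand) stood at 348, 135 and 719 CPM in the islet libraries, in the same order, and at 147, 133 and 149 CPM in the fat libraries. Islet libraries 2 and 6 were above all fat libraries, and islet library 4 lay within the fat range. Mean levels were 401 ± 296 and 143 ± 9.05 CPM (± SD over 3 libraries each), and the log2 difference of 1.49 ± 0.51 (SE) missed the threshold (edgeR adjusted p = 0.0763). DESeq2 called it higher (adjusted p = 0.0265), as did edgeR with no filter on low counts (adjusted p = 2.57e-04) or without islet replicate 4 (log2 1.89, adjusted p = 0.00635). Limma voom (adjusted p = 0.123) and the edgeR fit blocked on replicate number (adjusted p = 0.102) did not, and without islet replicate 6 the log2 difference was 0.75. Without islet libraries 2 and 4 it was 2.25, a fit that holds only islet library 6, the highest for this gene, and so no islet spread.

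Rela encodes p65, the subunit that carries most of the activating capacity of canonical NF-κB. It varied least between islet libraries of all subunits, with 175, 121 and 158 CPM in islet and 119, 101 and 116 CPM in fat libraries 2, 4 and 6. All islet values were above the fat values, but the log2 difference of 0.44 ± 0.23 (SE, 95% interval -0.10 to 0.97) did not pass (edgeR adjusted p = 0.241). Rel, which encodes c-Rel, a subunit active in immune cells, stood at 387, 132 and 258 CPM in islet and at 258, 209 and 160 CPM in fat libraries (log2 difference 0.31 ± 0.39, edgeR adjusted p = 0.629). Its islet libraries spanned a wider range than the fat libraries and enclosed it. Its log2 difference had the other sign, -0.099, without islet replicate 2.

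Nfkb2 and Relb, the genes of the non-canonical dimer, had no difference past the threshold. Relb was 109, 24.1 and 111 CPM in islet and 66.6, 48.3 and 55.8 CPM in fat libraries 2, 4 and 6. Nfkb2 was 168, 54.2 and 204 CPM in islet and 174, 132 and 122 CPM in fat libraries. Both were lowest of all 6 libraries in islet library 4. Without islet replicate 4, Relb had a log2 difference of 0.95 (edgeR adjusted p = 0.0230) in place of 0.52 ± 0.49 (adjusted p = 0.515). Nfkb2 had a log2 difference of -0.0028 ± 0.43 (edgeR adjusted p = 0.997), with a 95% interval of -0.99 to 0.98, and it did not pass in any of the 15 alternatives. Exons of Nfkb2 share 18.1% of their length with genes on the opposite strand, and no source used here gives the strand setting of the counting.

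Levels were compared between genes per length, as CPM per kilobase of exonic length. That length joins all annotated exons, which can exceed the transcript present, and the order of genes depends on it. It is 12.061 kilobases for Nfkb1 and 4.584 for Nfkb2, which had almost equal means in fat before division by length (143 and 142 CPM). In fat macrophages Nfkbia had the highest level (429 ± 24.2 CPM per kilobase), followed by Nfkbiz (259 ± 27.6) and Tnfaip3 (109 ± 4.87), and the gaps between these 3 were wider than their SDs (n = 3). Rela came next with 36.4 ± 3.21 CPM per kilobase, and Nfkb2, Rel, Bcl3 and Nfkbie followed at 31.1, 28.0, 25.0 and 24.7 CPM per kilobase, with neighbours within 1 SD of each other. By this length, Relb (14.6 ± 2.36) and Nfkb1 (11.9 ± 0.751 CPM per kilobase) were lowest in fat. In islet macrophages Nfkbia was again highest (158 ± 21.5 CPM per kilobase), with Tnfaip3 (83.2 ± 15.3) above Nfkbiz (58.0 ± 22.4). Below Rela (49.2 ± 8.98 CPM per kilobase), the other 6 genes averaged 20.9 to 34.7 CPM per kilobase and did not separate beyond their spread.

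The sum of the 5 inhibitor genes over the sum of the 5 subunit genes, both in CPM per kilobase, was 1.92, 3.49 and 1.76 in the islet libraries and 6.33, 7.38 and 7.27 in the fat libraries, in the order 2, 4 and 6. The highest islet ratio was below the lowest fat ratio, and the means were 2.39 ± 0.959 and 6.99 ± 0.577 (SD, n = 3). This ratio is a description of genes chosen with results known and was not tested. Without Nfkbia it averaged 1.32 in islet and 3.44 in fat libraries. It was not computed without Nfkbiz (58.0 CPM per kilobase in islet and 259 in fat), whose product is also needed for some target genes. The subunit sum holds Nfkb1, whose product p105 also retains dimers. For single genes, Nfkb1 over Nfkbia per kilobase was 0.192, 0.0795 and 0.328 in islet and 0.0245 to 0.0307 in fat libraries. Nfkbia over Rela was 2.65, 3.59 and 3.54 in islet and 10.7 to 13.7 in fat libraries.

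**Figure D3:**
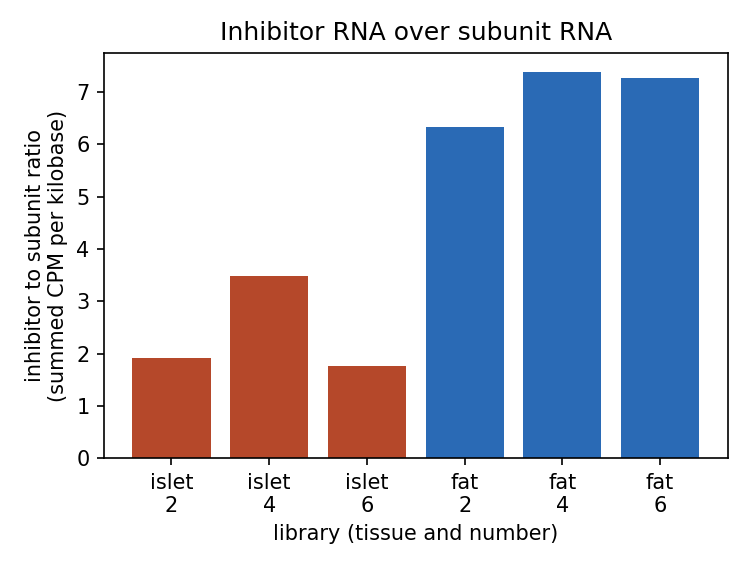
Summed CPM per kilobase of the 5 inhibitor genes divided by that of the 5 subunit genes in each library, with islet libraries in red and fat libraries in blue. The 3 islet libraries stand at 1.92, 3.49 and 1.76, and the fat libraries between 6.33 and 7.38.

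The NF-κB genes varied far more between islet than between fat libraries. For all 10 genes the coefficient of variation was higher in islet, with a median of 52.0% against 9.24% in fat. The same was true of 81.9% of all genes tested with counts in both tissues, whose medians were 41.2% and 18.1%. Islet library 4, the library with the fewest counts, was the lowest islet library for 9 of the 10 genes, beside 39.3% of all genes, and the lowest of all 6 libraries for 7, beside 26.8% of all genes. The exception was Nfkbiz, which was lowest in islet library 6. For Tnfaip3, islet libraries 4 and 6 were almost equal (537.25 and 537.8 CPM). The highest islet library exceeded the lowest 5.33-fold for Nfkb1, 4.62-fold for Relb, 3.77-fold for Nfkbie and 3.71-fold for Bcl3, while Nfkbia, Tnfaip3 and Rela varied by 1.29-fold, 1.36-fold and 1.45-fold. Over the 6 libraries, the centred log2 CPM profile of Bcl3 was closest to that of Nfkb2 (root mean square distance 0.163) and that of Nfkbie closest to that of Bcl3 (0.240). The largest distance was between Nfkb1 and Nfkbiz (1.96).

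**Figure D4:**
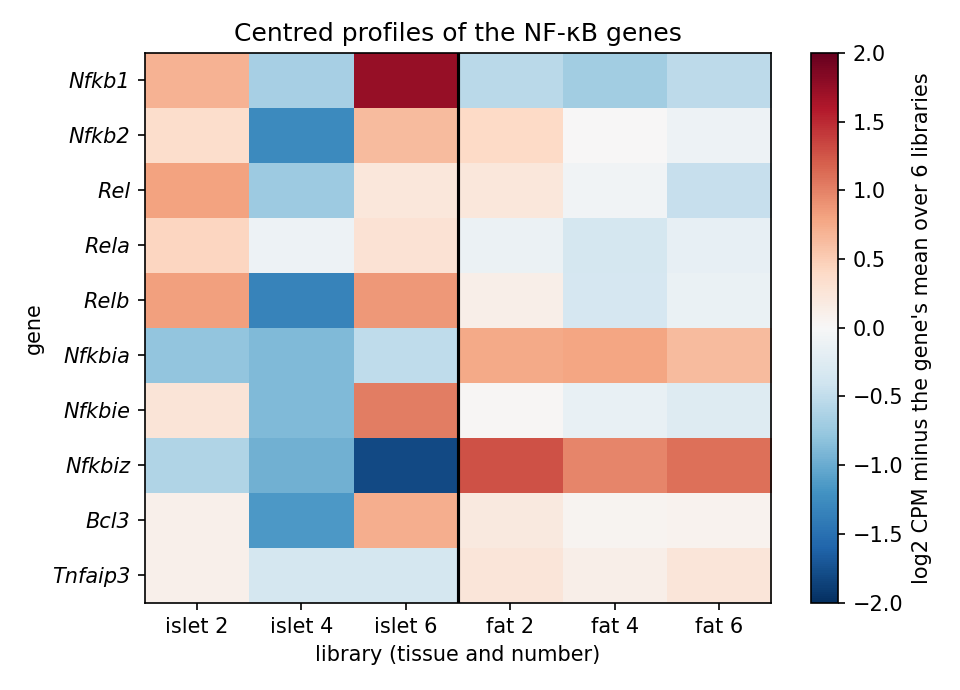
Log2 CPM of each NF-κB gene minus its mean over the 6 libraries, as colour from blue (lower) to red (higher), with islet libraries left of the black line and fat libraries right. Nfkbia and Nfkbiz are blue in all 3 islet libraries, while most other genes are blue in islet library 4 and red in islet libraries 2 or 6.

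Several of these genes are themselves known NF-κB targets, so the promoters of Nfkbia, which fell, and of Nfkbie and Rel, which did not pass, are shown for the motif they share. RefSeq promoter windows (GRCm38.p6) were found for 7 of the 10 genes, not for Nfkb1, Nfkbiz and Relb. The 250 bases before each annotated start were searched on both strands for the NF-κB consensus motif, and overlapping matches were counted each. A match was found for 5 of the 7 genes (Nfkb2, Nfkbia, Nfkbie, Rel and Tnfaip3), and not in the windows of Rela and Bcl3. Of all 27025 genes with a window, 4.46% had a match. The sequences read 5′ to 3′ on the strand of the gene and end at the base before the start, with the matches in capitals. The Nfkbia window is chr12:55492648-55492897 (minus strand), that of Nfkbie chr17:45555450-45555699 (plus strand) and that of Rel chr11:23770970-23771219 (minus strand).
Nfkbia: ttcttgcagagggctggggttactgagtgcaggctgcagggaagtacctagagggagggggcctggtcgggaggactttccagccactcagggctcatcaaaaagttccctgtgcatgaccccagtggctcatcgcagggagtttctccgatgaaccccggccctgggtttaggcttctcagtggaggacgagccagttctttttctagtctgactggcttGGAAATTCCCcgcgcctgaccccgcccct
Nfkbie: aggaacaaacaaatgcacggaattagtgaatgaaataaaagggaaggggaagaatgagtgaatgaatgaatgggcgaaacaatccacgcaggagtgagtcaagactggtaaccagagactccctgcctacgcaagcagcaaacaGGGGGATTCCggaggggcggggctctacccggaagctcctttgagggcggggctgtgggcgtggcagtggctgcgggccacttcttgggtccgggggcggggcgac
Rel: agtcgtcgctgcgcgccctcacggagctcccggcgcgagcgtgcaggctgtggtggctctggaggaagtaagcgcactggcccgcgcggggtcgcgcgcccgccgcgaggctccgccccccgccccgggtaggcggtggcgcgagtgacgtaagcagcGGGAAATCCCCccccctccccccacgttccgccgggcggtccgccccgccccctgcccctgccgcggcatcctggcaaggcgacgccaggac
The Nfkbia match, GGAAATTCCC, covers bases 29 to 20 before the start, and the Nfkbie match, GGGGGATTCC, bases 106 to 97. In Rel, matches on the 2 strands, GGGAAATCCC and GGAAATCCCC, overlap between bases 92 and 82. A match is not a bound site, and a window with a match was present both in a gene that fell (Nfkbia) and in genes that did not pass.

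Of 32 genes of the kinases, adaptors and ubiquitin ligases upstream, 6 rose and 3 fell, and the other 23 missed the edgeR threshold, beside the 8.97% and 10.5% of all genes, so that the lower count was near the share over all genes. Their median log2 difference was 0.15. The core IκB kinase genes did not pass, with Chuk at 34.9 ± 12.2 against 36.4 ± 1.14 CPM and Ikbkb at 106 ± 7.85 against 102 ± 2.87 CPM in islet and fat (SD, n = 3). Those that rose were Traf3, Irak2, Ticam1, Malt1, Traf1 and Traf2, where Malt1, Traf1 and Traf2 were named after their values were seen. Traf3, a brake on the non-canonical pathway, was at 166, 80.8 and 186 CPM in the islet libraries and 28.7 to 35.4 CPM in fat libraries (log2 2.17 ± 0.33, SE). Irak2, a kinase adaptor of Toll-like and interleukin 1 receptors, rose by 2.04 ± 0.32, and Ticam1, the TRIF adaptor of Toll-like receptors 3 and 4, by 2.30 ± 0.40 on the log2 scale. These 3 genes had edgeR adjusted p = 0.00279, 0.00298 and 0.00465 and passed in all 15 alternatives. Malt1, Traf1 and Traf2 had log2 differences of 1.78 ± 0.42, 1.99 ± 0.54 and 1.22 ± 0.36 (edgeR adjusted p = 0.0183, 0.0326 and 0.0443). None of these 3 was called without islet replicate 2 or without any 1 of the fat replicates, and Traf2 was also not called without islet replicate 6 (adjusted p = 0.0796), with RLE factors (0.0513) or in the edgeR fit blocked on replicate number (0.0777).

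Of the upstream genes, 3 fell. Map3k8, the kinase TPL2 that p105 holds inactive, stood at 101, 82.6 and 40.7 CPM in islet and 156 to 216 CPM in fat libraries (edgeR adjusted p = 0.0269). Birc3, a ubiquitin ligase gene that NF-κB also induces, and Ripk1, a kinase scaffold below TNF receptors, had log2 differences of -1.24 ± 0.34 and -0.91 ± 0.27 (edgeR adjusted p = 0.0325 and 0.0479). Ripk1 was not called in the blocked edgeR fit with the replicate number as a term (adjusted p = 0.0561). Without fat replicate 2, 4 or 6 none of the 3 passed and 3 genes rose. Without islet replicate 2 the counts were 3 higher and 1 lower. Those fits also called fewer of all genes tested, beside 1090 higher and 1271 lower with all libraries. Without fat replicate 2, 4 or 6, 494, 466 and 547 were higher and 593, 687 and 774 lower. Without islet replicate 2, 754 were higher and 1090 lower.

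Of 18 other inhibitors of the pathway, 3 rose and 3 fell, and the other 12 missed the edgeR threshold, beside the 8.97% and 10.5% of all genes. Their median log2 difference was 0.13. Nfkbid encodes IκBNS, a nuclear IκB protein like the product of Nfkbiz. Islet libraries 2, 4 and 6 held 51.0, 41.3 and 28.0 CPM of it and fat libraries 238, 147 and 144 CPM, a log2 difference of -2.14 ± 0.32 (edgeR adjusted p = 0.00255). Its 3 islet libraries had the same order as those of Nfkbiz. Nfkbib, the gene of IκBβ, had means of 93.8 ± 44.3 and 56.7 ± 3.84 CPM in islet and fat (edgeR adjusted p = 0.181, and 0.0303 without islet replicate 4), and 16.4% of its exonic length overlaps genes on the opposite strand.

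Enzymes and adaptors that act on ubiquitin chains differed in direction. Otulin, which removes linear chains, rose from 40.8 ± 3.37 CPM in fat to 144 ± 58.8 CPM in islet (± SD over 3 libraries, edgeR adjusted p = 0.00451). Tnip1, a partner of A20, rose from 42.9 ± 3.86 to 233 ± 155 CPM (edgeR adjusted p = 0.00904). Tnip1 was not called when fat replicate 2 or 4 was left out (adjusted p = 0.0523 and 0.0589 in edgeR). Otud7b, the deubiquitinase that stabilises TRAF3, was 5.64, 5.16 and 5.79 CPM in islet and 26.9 to 33.3 CPM in fat libraries (edgeR adjusted p = 0.00114). Cyld, another deubiquitinase, rose by 0.70 ± 0.21 (log2, SE, edgeR adjusted p = 0.0496) but passed in only 4 of 15 alternatives and was not called in the blocked fit (adjusted p = 0.112). Pdlim2, a nuclear ligase for RelA, fell by 1.62 ± 0.40 on the log2 scale (SE), and leaving out fat replicate 2, 4 or 6 ended its call (adjusted p = 0.0589, 0.0631 and 0.109 in edgeR). Of this list, 5 genes rose when islet replicate 4 was left out and 1 when fat replicate 2 or 4 was. Without islet replicate 6 or with no filter on low counts, 5 fell. The number called over all genes moved in the same direction in each of these fits.

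Known NF-κB target genes of macrophages split more widely than the regulators. Of 38 tested, 13 rose and 7 fell, and the other 18 missed the edgeR threshold, beside the 8.97% and 10.5% of all genes, and the median log2 difference was 0.76. Nos2, the inducible nitric oxide synthase gene, was listed but too low to test. The genes that rose with the smallest p were Ccl4, Il1a and Il1b. Ccl4, a chemokine gene, was at 384, 371 and 159 CPM in the islet libraries and 12.5 to 17.6 CPM in fat libraries, 20.4-fold higher (log2 4.35 ± 0.40, edgeR adjusted p = 2.49e-04). Il1b, the gene of interleukin 1β, stood at 637, 380 and 439 CPM in islet and 24.4 to 68.2 CPM in fat libraries, 10.6-fold higher (edgeR adjusted p = 0.00104). Il1a was 18.1-fold higher (edgeR adjusted p = 2.74e-04), and 11.2% of its exonic length overlaps a gene on the opposite strand. Tnf, named after its value was seen, was 3.05-fold higher, with means of 195 ± 92.0 CPM in islet and 63.9 ± 5.87 CPM in fat (edgeR adjusted p = 0.0180), but was not called without islet replicate 2 or any 1 of the fat replicates (adjusted p = 0.0604 to 0.0957 in edgeR).

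Other target genes were lower in islet macrophages. Ccl2, the monocyte chemokine gene, was 17.5, 14.6 and 15.0 CPM in islet and 606, 483 and 474 CPM in fat libraries 2, 4 and 6, 33.1-fold lower (log2 -5.05 ± 0.28, edgeR adjusted p = 4.83e-05). Mmp9, a gelatinase gene, had 2 counts in all islet libraries together and 190 to 298 CPM in fat libraries, a fat level 1908 times that of islet after scaling to library size (exact 95% interval 528 to 15760). That interval reflects counting error alone and takes no account of PCR copies. Ier3, an early survival gene, had a log2 difference of -2.59 ± 0.33 (edgeR adjusted p = 0.00122). Il6 and Cxcl1, named after their values were seen, also fell, with Il6 at 2.42, 0 and 3.64 CPM in islet and 13 to 19.3 CPM in fat libraries (edgeR adjusted p = 0.0345). Neither was called without islet replicate 2 or any 1 of the fat replicates (adjusted p = 0.0692 to 0.148 in edgeR), and Cxcl1 was not called by DESeq2 (adjusted p = 0.0728). Without fat replicate 6, 8 target genes rose, and without islet replicate 2 or fat replicate 2, 4 or 6, 4 fell. Fewer of all genes tested were called in these fits as well. A match to the consensus motif was found for 13 of the 28 target genes with a promoter window, a description that no value here ties to the tissue difference.

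**Figure D5:**
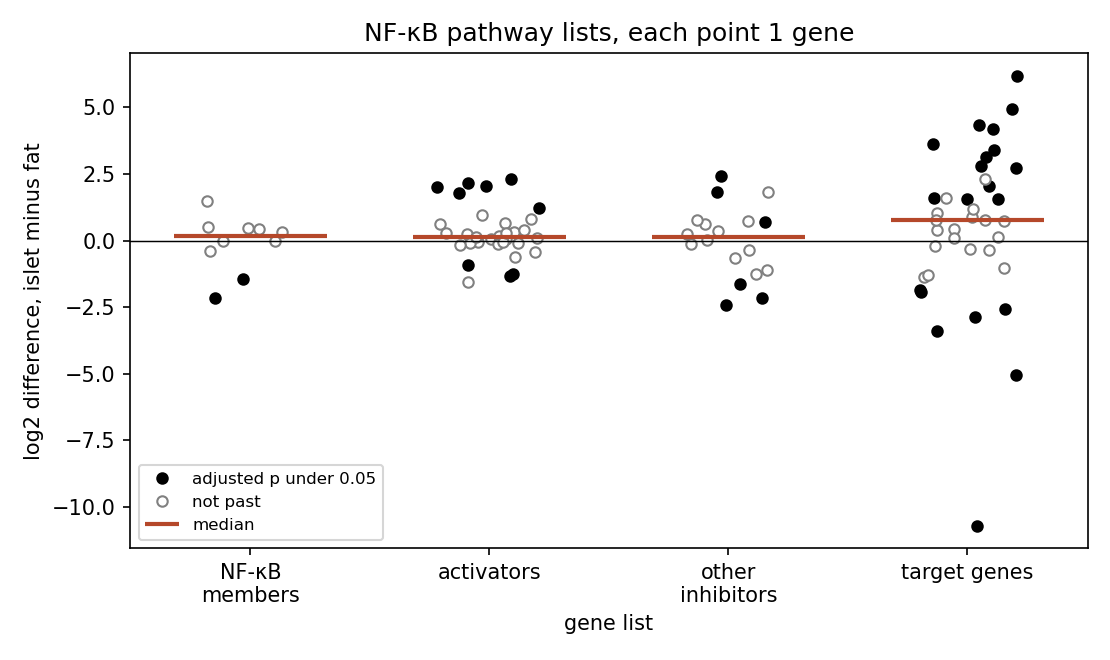
Log2 difference, islet minus fat, of each tested gene in the NF-κB set and in 3 pathway lists, filled in black where the edgeR adjusted p is under 0.05, with the list median as a red line. The target genes spread widest and have the highest median (0.76), and the other medians are 0.15, 0.15 and 0.13.

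For each NF-κB gene, the gene with the closest centred log2 CPM profile over the 6 libraries was taken from 4547 well expressed genes outside the set. Nfkbiz was closest to Cebpd (root mean square distance 0.177), with 30.2, 24.7 and 14.4 CPM in the islet libraries and 113 to 129 CPM in the fat libraries. Nfkbia was closest to Exoc6b (0.0878) and Nfkb1 to Rapgef2 (0.115), which stood at 277, 86.0 and 513 CPM in islet and at most 110 CPM in fat libraries. Nfkb2 was closest to Icam1 (0.103), the adhesion molecule gene of the target list. The distances of the other 6 genes to their nearest gene were 0.0547 to 0.179, for Rela (Snap29), Tnfaip3 (Ddx5), Bcl3 (Plekho2), Rel (Armcx3), Nfkbie (Zfp451) and Relb (Arl8a). Profiles over 6 libraries of 2 tissues share the tissue difference and library quality, and many genes can lie close by such a measure.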

How the data were processed

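RNA was extracted from sorted islet and fat macrophages with a micro column kit and made into stranded total RNA libraries for very low input, per the labels. The authors deposited an unnormalised count of reads for each gene and library. The submitters' processing notes name STAR, featureCounts, Subread 1.6.4 and GRCm38, and the annotation and strand setting used were not stated. Coordinates and exonic lengths came from GENCODE M21, in which 50376 of 50600 gene identifiers were found. Counts were fitted in R 4.3.3 with edgeR 4.0.16 (filterByExpr, TMM, robust quasi-likelihood, tissue as the only term, islet minus fat), with Benjamini-Hochberg adjustment over all 12152 genes tested and a threshold of 0.05. CPM are counts scaled to a TMM-adjusted library size of 1e+06.

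The design text calls the samples autologous and the batch label carries the number of the title, so libraries with the same number may be paired. The main fit treated the 6 libraries as unpaired, and the pairing entered only the fit blocked on replicate number. Of all genes, that fit called 884 higher and 1103 lower, beside 1090 and 1271 in the main fit. Deviations from the tissue mean, across genes, correlated between same-number libraries by 0.046, 0.063 and -0.0076 for numbers 2, 4 and 6. The blocked fit was an alternative, beside DESeq2 1.42.0, voom in limma 3.58.1, RLE or upper-quartile scaling, no filter, genes with at least 1 CPM throughout a tissue, each library left out, islet libraries 2 and 4 left out, and the handling-response and ribosomal RNA genes left out.

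The members, lists and tests were chosen with earlier results of these data known, and list membership comes from general knowledge. Genes were named by a rule: the 10 members, the 3 smallest adjusted p in each direction in each pathway list, the nearest profile of each member among genes whose log2 CPM averages 5 or more (prior count of 2), and 4 handling genes. Any other gene was named with its values known. The replicates of a tissue are separate samples by the labels. The p-values measure the spread between these samples, with the pairing used only in the blocked fit. With 3 libraries per tissue an exact permutation test cannot go below p = 0.1, and none is reported.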

Additional observations from a re-analysis of the deposited data

How the results depend on the processing

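The cause of the changes given here was not tested. Fits with a library left out also hold fewer samples. The number of NF-κB genes called higher in islet was 0, and was 1 in DESeq2 and with no filter, and 0 to 2 with each library left out. No count of genes called higher is given for the fit without islet libraries 2 and 4, which holds no islet spread. In every fit 2 were called lower. Genes upstream of NF-κB called higher numbered 6, and 10 without islet libraries 2 and 4, with 3 to 7 over the fits that leave out a replicate, and the lower ones 0 to 4 (3 with all libraries). Other inhibitors called lower numbered 3, and 5 with no filter. With each replicate left out, 1 to 5 of the other inhibitors were higher and 2 to 5 lower, and of the target genes 8 to 16 were higher and 4 to 9 lower. The inhibitor to subunit ratio averaged 1.53 in islet and 4.42 in fat on plain CPM (2.39 and 6.99 per kilobase), and 1.32 in islet and 3.44 in fat without Nfkbia. Of 150 values of single NF-κB genes under the alternatives, 134 kept their direction and side of the threshold. Another 7, those of Nfkb1, Relb and Nfkbie, passed it newly, and the other 9 changed sign and had no call. Some of the 7 came from the fit with library 6 as the only islet library, which holds no islet spread. Nfkb2 had log2 differences of 0.0087 with at least 1 CPM throughout a tissue, 0.43 without islet libraries 2 and 4, and -0.36 to 0.38 with each replicate left out, and Bcl3 0.55 and -0.49 to 0.34 under the latter 2 settings (0.34 without islet replicate 4, 0.022 without fat replicate 2). Rel ranged from -0.099 to 0.63 and Nfkbie from -0.079 to 0.81 with each replicate left out. Of 461 values of the pathway and handling genes named with a difference, 58 lost the call, 3 passed newly and 9 without a call changed sign. Chuk had 0.31 without islet libraries 2 and 4 and up to 0.16 with a replicate left out. Ikbkb had -3.6e-04 with RLE factors, -9.6e-04 in DESeq2, -0.0084 with no filter and -0.051 to 0.096 with each replicate left out. Jun ranged from -1.03 to 0.30 and Atf3 from -0.66 to 0.24 over those fits. With the replicate block, 0 NF-κB genes were higher and 2 lower. Among the pathway and handling genes named with a difference, the block changed no call other than those of Ripk1, Cyld and Traf2. Genes of the lists that are not named also changed, as the block called 3 of the other inhibitors higher and 4 lower. The median log2 difference of all genes was 0.0061, -0.040 with RLE and -0.016 with upper-quartile factors, -0.30 with no filter and -0.20 without islet libraries 2 and 4. Each NF-κB gene had at least 84 counts in every library.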
